A study of Mus musculus with 8 samples.

Results

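The type I interferon response genes followed here are a list of 31 transcripts that cells make after interferon alpha or beta binds its receptor. They were chosen by name, and every probe for a RefSeq transcript of such a gene was taken. Of the 31 genes, 29 had a probe by this rule, on 37 probes in all, out of 37074 genes and 55681 probes that entered the array data. The 2 genes without a matching probe, Mx1 and Mx2, were not analysed here. All 29 were above background on all 8 arrays at their brightest probe and none was saturated, so each of them entered the tests.

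RNA came from the Ly6G+ fraction of mouse bone marrow, which the labels call neutrophils, with C57BL/6 as the strain background of every sample. The groups were wild type (WT, 4 arrays) and a knockout of activating transcription factor 3 (ATF3 KO, 4 arrays), and no stimulus is named for either. How the knockout allele was made and the age and sex of the mice are not given in the sources used here, nor whether the samples came from separate animals, so p-values measure the spread between these samples only, which may be technical. The series design has RNA taken straight after bead purification, whereas the description of 7 samples names a methylcellulose culture, and this conflict was not resolved. All arrays lay on 1 slide with WT in one row and ATF3 KO in the other, so that the position on the slide and the genotype cannot be told apart. The purified fraction had 11 of 12 neutrophil markers above background; Ly6g was not among the genes tested.

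Type I interferons are cytokines that most cells release when sensors of viral nucleic acid are triggered. They signal through the receptor chains Ifnar1 and Ifnar2 to a complex with Stat2 and Irf9, which binds a promoter element and switches on a large set of antiviral genes. The products include RNA sensors that restart the loop, the ubiquitin-like protein Isg15, RNA-binding Ifit proteins and the OAS enzymes. Marrow neutrophils carry these transcripts at rest, and the set is commonly used as a readout of interferon exposure. ATF3 is a stress-induced factor of the ATF/CREB family, best known in leukocytes as a repressor of inflammatory genes.

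The Atf3 probe did not read lower on the arrays labelled ATF3 KO. Its level was 0.69, 0.82, 0.75 and 0.65 on the 4 WT arrays and 1.53, 1.00, 1.41 and 1.02 on the 4 ATF3 KO arrays. Levels here are log2 signal minus the 75th percentile of the array, so that 0 is the brightness below which 75% of the probes lie. Every ATF3 KO array was above every WT array, by 0.51 on average (SE 0.14, limma adjusted p = 0.121). Only the values of the authors' deposited table, among the alternatives, took it past the threshold (0.54, limma adjusted p = 0.0345). Where the probe lies relative to the deleted part is not given in the sources used here, so it does not check the labels, and WT and ATF3 KO stand for the labels throughout.

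One array stood apart for these genes. The ATF3 KO replicate 3 array had the highest level of all 8 arrays for 29 of 29 members, a position it held for 11.6% of the 21251 genes tested. Its 75th percentile of signal was 138 and 46.9% of its probes were above background. Over all arrays these ran from 113 to 216 and from 46.0% to 55.3%, so replicate 3 was among the dimmer arrays without being the dimmest. Between the genotypes that percentile averaged 186 ± 33.8 (WT) and 141 ± 21.3 (ATF3 KO; SD over 4 arrays each, two-sided exact permutation p = 0.0857). Results are therefore given array by array, and with and without replicate 3.

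The promoters of 4 members are shown: the 3 members first in order of their difference that hold the element interferon signalling uses, and the first that has an entry and does not hold it. Among the 8 members with the largest differences, Ifit1, Ifit3, Gbp2 and Isg15 held it, Oasl1 and Oasl2 did not, and Usp18 and Oas2 had no entry. The sequences are the 200 bases before the RefSeq start site in GRCm38.p6, 5′ to 3′ on the strand of the gene. Capitals mark matches to the core of the interferon-stimulated response element (ISRE), which is GAAA, any 2 bases and GAAA again, on either strand, so that a match on the reverse strand reads TTTC, any 2 bases and TTTC. The Ifit1 promoter lies at chr19:34640689-34640888 (plus strand) and that of Ifit3 at chr19:34583329-34583528 (plus strand), each with 2 matches. The Gbp2 promoter at chr3:142620463-142620662 (plus strand) holds 1 match, and that of Oasl1 at chr5:114923040-114923239 (plus strand) none.
Ifit1: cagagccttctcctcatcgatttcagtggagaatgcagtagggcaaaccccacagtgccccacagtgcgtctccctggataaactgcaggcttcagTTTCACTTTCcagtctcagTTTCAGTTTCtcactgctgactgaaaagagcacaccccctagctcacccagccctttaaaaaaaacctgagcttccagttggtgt
Ifit3: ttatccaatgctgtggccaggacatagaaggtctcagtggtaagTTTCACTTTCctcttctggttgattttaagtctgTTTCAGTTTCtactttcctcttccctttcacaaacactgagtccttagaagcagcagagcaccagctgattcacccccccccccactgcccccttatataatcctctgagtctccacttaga
Gbp2: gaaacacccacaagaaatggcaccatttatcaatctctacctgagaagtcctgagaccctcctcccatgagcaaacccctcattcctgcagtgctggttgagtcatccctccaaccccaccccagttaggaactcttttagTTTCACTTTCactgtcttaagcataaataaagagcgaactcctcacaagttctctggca
Oasl1: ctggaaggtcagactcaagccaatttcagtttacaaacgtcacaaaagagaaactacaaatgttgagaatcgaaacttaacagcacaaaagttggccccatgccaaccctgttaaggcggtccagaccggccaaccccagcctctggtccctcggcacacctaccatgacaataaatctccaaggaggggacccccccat

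Positions are counted back from the start site, with -1 the last base before it. In Ifit1 the matches began at -104 and -85, in Ifit3 at -156 and -122, and in Gbp2 at -59. In the windows RefSeq gave, from 250 bases before to 50 after each start, 12 of the 22 members with an entry held the ISRE core, against 3.99% of 27025 genes with an entry. The 12 were Bst2, Ddx58, Gbp2, Gbp3, Ifih1, Ifit1, Ifit3, Isg15, Oas3, Rsad2, Stat2 and Trim30a. Isg15 had 3 overlapping matches, beginning at -78, -72 and -66. The gamma-activated site TTCNNNGAA, which can overlap the ISRE core, was found in 3 of 22 members and 9.55% of all genes. The AP-1 site TGANTCA was found in 6 of 22 members and 8.97% of all genes, and the cyclic AMP response element TGACGTCA, an element of the ATF/CREB family, in 0 of 22 members and 2.03% of all genes. A match is a string of letters and not a measured binding site, and the lack of an exact match does not exclude a site.

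As a whole the list stayed within a narrow range on 7 arrays and was high on 1. The list level of an array is the mean over the 29 members of the deviation from each gene's own 8-array mean, minus the median deviation of all genes on that array. It was −0.14, −0.26, −0.28 and −0.02 on WT replicates 1 to 4, and −0.02, −0.27, 1.07 and −0.13 on ATF3 KO replicates 1 to 4. Without replicate 3, the ATF3 KO arrays lay between −0.27 and −0.02 and the WT arrays between −0.28 and −0.02, so the ranges nearly coincided. The gap between replicate 3 and the next highest array was 0.36 to 1.68 over the members (median 0.91), which is a ratio of 1.28 to 3.21 (median 1.88). In 25 of 29 members this gap exceeded the whole range of the other 7 arrays. The SD of the ATF3 KO group was 0.39 to 1.00 and that of the WT group 0.045 to 0.36, and the ATF3 KO group had the larger SD in 29 of 29 members.

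**Figure D1:**
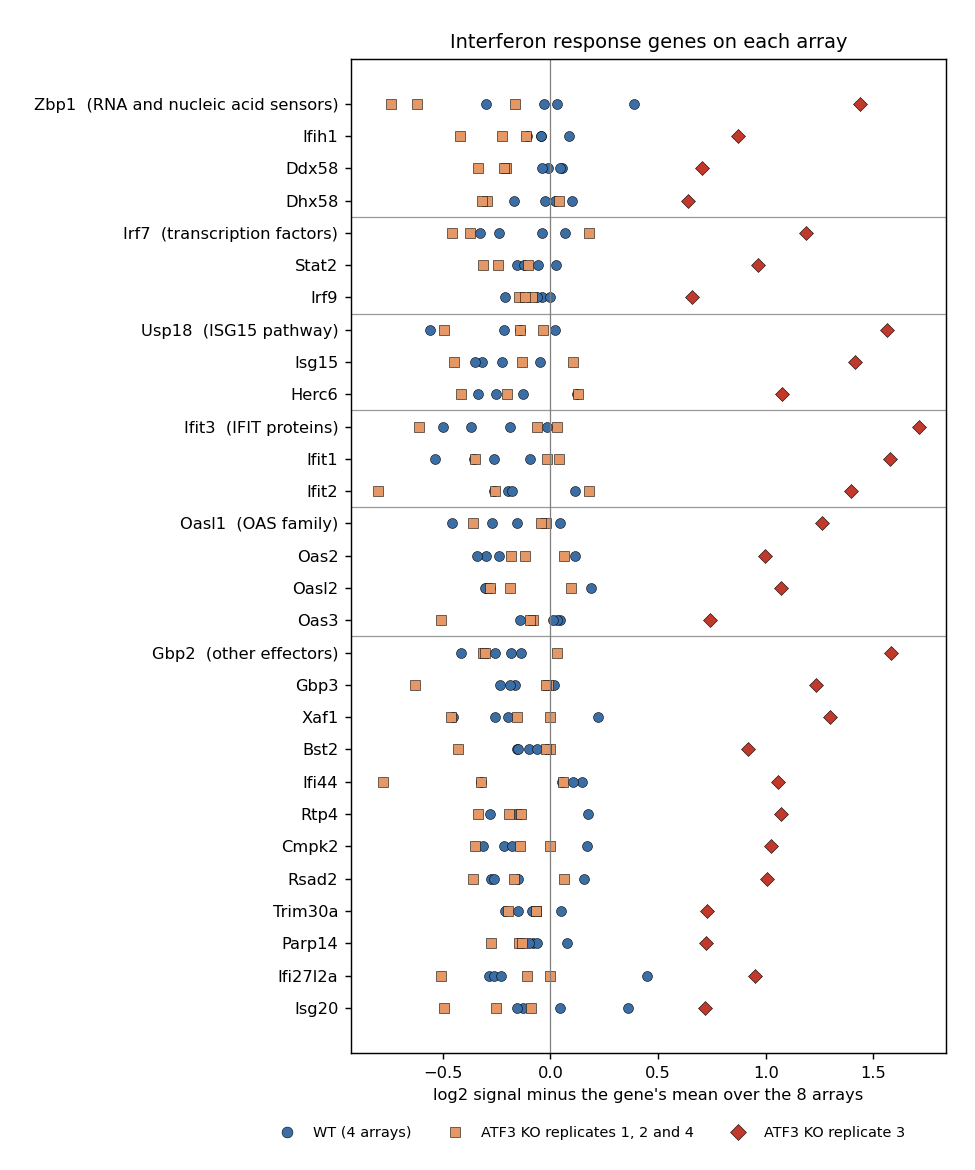
Each row is a member and each point an array; the x axis is the log2 signal minus the gene's mean over the 8 arrays, and horizontal lines separate the roles. ATF3 KO replicate 3 (diamonds) is the rightmost point in 29 of 29 rows. The other ATF3 KO arrays (squares) and the WT arrays (circles) overlap, except for Ddx58, Ifih1 and Parp14. In those rows the squares lie to the left of the circles.

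The IFIT proteins, which bind viral RNA ends and block its translation, had the highest level of any role on replicate 3. Ifit1 was at 1.63, 1.54, 1.35 and 1.80 on the WT arrays and at 1.93, 1.54, 3.47 and 1.88 on the ATF3 KO arrays. Before scaling, its signal was 666, 626, 420 and 524 in WT and 612, 448, 1534 and 413 in ATF3 KO. Replicate 3 was thus 2.91 times the next highest array in scaled signal, and the other 3 ATF3 KO arrays lay among or just above the WT arrays. Ifit3 read 4.26, 4.08, 3.95 and 4.43 in WT against 4.48, 3.84, 6.16 and 4.38 in ATF3 KO, with the ratio of 3.21 that was the widest of the list. Ifit2 lay between −0.24 and 0.74 on the other 7 arrays and at 1.96 on replicate 3, the lowest of them being ATF3 KO replicate 2. The level of the 3 genes together was 1.54 on that array, against 1.33 for the ISG15 pathway, 1.00 for the OAS family and 0.92 for the transcription factors.

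The ISG15 pathway attaches the small protein Isg15 to targets and takes it off again. Isg15 itself was at 6.45, 6.18, 6.14 and 6.27 in WT and at 6.36, 6.05, 7.91 and 6.60 in ATF3 KO. Replicate 3 was highest by 1.31, and the groups overlapped. Usp18, the protease that removes Isg15 and also dampens the interferon receptor, read 3.09, 3.02, 2.67 and 3.25 in WT and 3.09, 2.74, 4.79 and 3.19 in ATF3 KO. The 3 ATF3 KO arrays other than replicate 3 were inside the WT range for Usp18. Herc6, the mouse ligase for Isg15, lay between −1.05 and −0.51 on the other 7 arrays and at 0.44 on replicate 3.

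The OAS family senses double-stranded RNA and triggers RNA decay, and Oasl1 and Oasl2 are relatives of the family. Oasl1 was at 4.82, 4.71, 4.52 and 5.02 in WT and at 4.96, 4.62, 6.24 and 4.94 in ATF3 KO. It carried no exact match to the ISRE core in the window shown, and it read highest on replicate 3, by 1.22. Oas2 was at 5.55, 5.61, 5.51 and 5.96 in WT and at 5.91, 5.67, 6.85 and 5.73 in ATF3 KO, and Oasl2 at 5.90, 5.92, 5.90 and 6.39 against 6.30, 6.01, 7.27 and 5.92. Both were highest on replicate 3, with WT replicate 4 next. Oas3 was among the 4 members with the smallest difference: 4.53, 4.51, 4.34 and 4.49 in WT against 4.40, 4.39, 5.22 and 3.97 in ATF3 KO. There replicate 3 was the highest array and replicate 4 of the same group the lowest, and the group means were 4.47 ± 0.085 and 4.50 ± 0.52 (SD, n = 4).

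The sensors are receptors for foreign nucleic acid that are themselves interferon-induced. Ddx58, which encodes RIG-I, is read by 2 probes. At the brighter one it was at 4.83, 4.89, 4.80 and 4.89 in WT and at 4.63, 4.62, 5.55 and 4.50 in ATF3 KO. There, 3 ATF3 KO arrays lay below every WT array and 1 above. Ifih1, which encodes MDA5, split in the same way, at 2.79, 2.72, 2.79 and 2.92 in WT and 2.72, 2.41, 3.70 and 2.61 in ATF3 KO, where replicate 1 (2.722) was only just below the lowest WT array (2.724). Dhx58, which encodes the regulator LGP2, was at 2.87, 2.92, 2.73 and 2.998 in WT and 2.93, 2.60, 3.54 and 2.58 in ATF3 KO. In these genes the group means were close although the arrays were not. Zbp1, a sensor of Z-form nucleic acid that can start cell death, lay between 2.59 and 3.72 on the other 7 arrays, the widest such range of the list, and at 4.77 on replicate 3. The level of the 4 sensors together was 0.90 on replicate 3, and −0.10, −0.32 and −0.29 on ATF3 KO replicates 1, 2 and 4.

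The transcription factors of the pathway were higher on replicate 3 by 0.66 to 1.01. Irf7, the factor that amplifies interferon production, lay between 3.35 and 3.99 on the other 7 arrays and at 4.998 on replicate 3. Stat2 lay between 3.03 and 3.37 there and at 4.31 on replicate 3, and its DNA-binding partner Irf9 between 5.20 and 5.41 and at 6.07. Irf9 had the narrowest range of the list over the other 7 arrays, at 0.21.

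Among the other effectors, Gbp2, a guanylate-binding protein that attacks vacuoles of intracellular microbes, had the largest difference. It was at 3.45, 3.38, 3.22 and 3.50 in WT and at 3.66, 3.32, 5.21 and 3.33 in ATF3 KO, a ratio of 2.93 between replicate 3 and the next array. Its relative Gbp3 lay between 0.18 and 0.82 on the other 7 arrays and at 2.04 on replicate 3. Ifi44, an interferon-induced cytoplasmic protein, was at −1.12, −1.49, −1.03 and −1.07 in WT and at −1.50, −1.95, −0.12 and −1.11 in ATF3 KO. Its group means, −1.18 and −1.17, were the closest of the list while replicate 3 stood 0.91 above the next array.

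For the remaining effectors the range of the other 7 arrays is followed by the level on replicate 3. Rsad2 (viperin, which makes a chain-terminating nucleotide) was at 4.87 to 5.39 and then 6.24. Its genomic neighbour Cmpk2, a mitochondrial nucleotide kinase, was at 4.24 to 4.76 and then 5.62. Bst2 (tetherin, which holds budding virions at the membrane) was at 3.16 to 3.58 and then 4.50. All 3 were clear of the other arrays by 0.85 to 0.92. Xaf1, a pro-apoptotic protein, was at 2.58 to 3.26 and then 4.34. Trim30a, a mouse TRIM protein, was at 3.62 to 3.89 and then 4.56. Parp14, an ADP-ribosyltransferase, was at 3.48 to 3.83 and then 4.48. These showed gaps of 0.65 to 1.08. Rtp4, a chaperone of receptors, was at 6.79 to 7.29 and then 8.19. Ifi27l2a, a small membrane protein, was at 7.98 to 8.94 and then 9.44. Isg20, an RNA exonuclease, was at 5.46 to 6.31 and then 6.67, which was the smallest gap of the list.

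Tested by genotype, none of the 29 members passed. The difference ATF3 KO minus WT ran from −0.06 (Isg20) to 0.62 (Ifit1), with SEs of 0.18 to 0.42 and limma adjusted p from 0.292 to 0.991 over 21251 genes. Over all genes 0.447% passed an adjusted p under 0.05 (0.367% higher and 0.08% lower in ATF3 KO). At an unadjusted p under 0.05, 0 members passed against 23.9% of all genes, and 0 had groups that did not overlap against 15.1%. Ifit1 differed by 0.62 (SE 0.36), Ifit3 by 0.53 (SE 0.42), Gbp2 by 0.50 (SE 0.37) and Isg15 by 0.47 (SE 0.34), each with replicate 3 far above its own group. All genes had a median difference of −0.11 on this scale. Against it the list median, 0.26, was 0.37 higher, and 29 of 29 members lay above the all-gene median, which by definition divides all genes evenly.

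Without replicate 3 the list no longer stood above the rest by as much. The differences ran from −0.53 (Zbp1) to 0.20 (Ifit1), and the list median was 0.10 above that of all genes, which was −0.14. The number of members above the all-gene median was 19 of 29. Differences were above 0 in 7 of 29 members, against 26 of 29 with replicate 3; over all genes these shares were 33.3% and 34.5%. No member passed (lowest limma adjusted p = 0.105), while 1.1% of all genes did. The sensors Ddx58 and Zbp1, by −0.27 (SE 0.091) and −0.53 (SE 0.19), had an unadjusted p under 0.05, as had 32.8% of all genes. Both values rest on the brighter probe, and the second probes, given below, did not read lower in ATF3 KO on average. Parp14, Ifih1 and Ddx58 had 3 ATF3 KO values below all 4 WT values; over all genes 29.5% had groups that did not overlap in these 7 arrays.

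**Figure D2:**
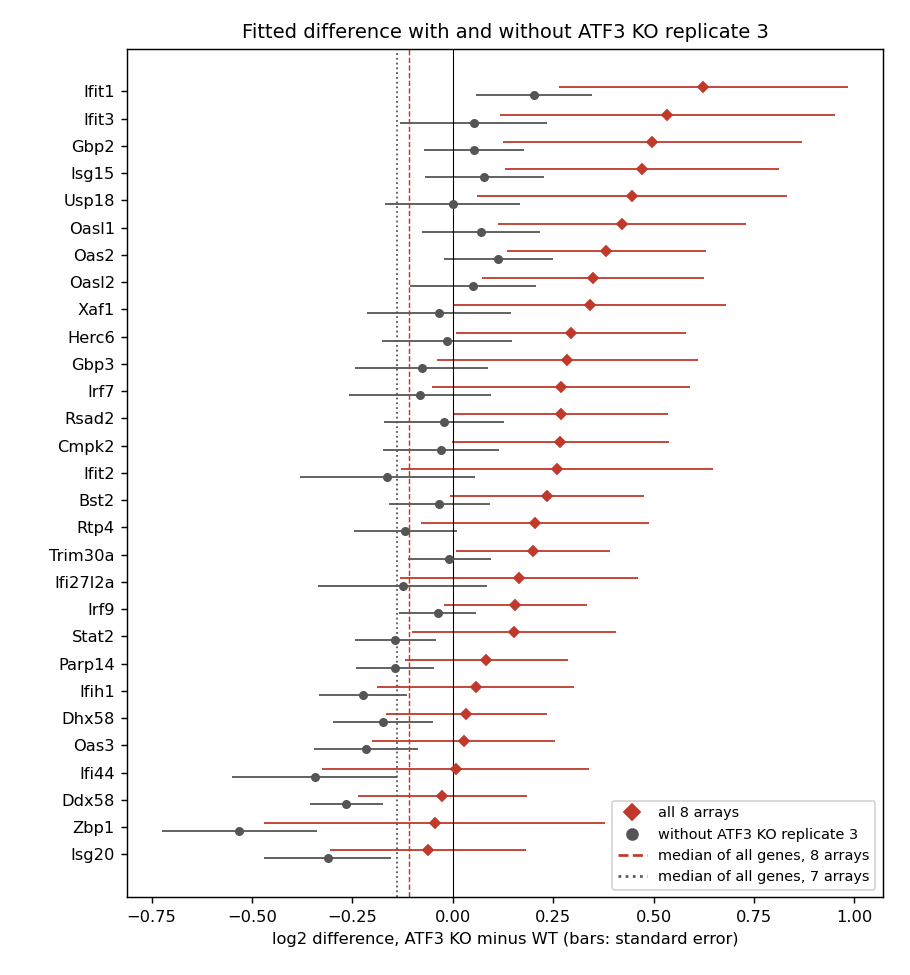
The x axis is the log2 difference ATF3 KO minus WT with its standard error, for each member with all 8 arrays (diamonds) and without ATF3 KO replicate 3 (circles); vertical lines mark the median of all genes in each fit, −0.11 and −0.14. Each of the 29 members moves to the left without that array, as it must because the array left out is the highest for each. Ifit1 stays the largest at 0.62 and 0.20.

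The members correlated more closely with that array than without it. The median Pearson correlation over 406 pairs of members was 0.92 over 8 arrays. Over the 7 arrays without replicate 3 it was 0.50, with pairs from −0.53 to 0.96. On those 7 arrays WT replicate 4 was highest for 14 members, ATF3 KO replicate 1 for 7 and WT replicate 1 for 5. An array that is the highest for every member raises such correlations by itself. These correlations share the arrays and their scaling and are descriptions only.

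In 8 members a second probe was present, and it too read highest on replicate 3 in each of them. The direction of the difference between genotypes was less uniform between probes. It differed in sign for Ddx58 (−0.03 and 0.31), Ifih1 (0.06 and −0.15), Isg20 (−0.06 and 0.17), Xaf1 (0.34 and −0.09) and Zbp1 (−0.05 and 0.57), where the first value is that of the brighter probe, which stands for the gene. The second probes of Ifih1 and Xaf1 were dim, above background on 6 and 7 of 8 arrays. The arrays on which they were not above background were all ATF3 KO. For Cmpk2, Herc6 and Isg15 both probes had the same sign. The second probe of Zbp1 was at 1.84, 1.82, 1.56 and 1.64 in WT and at 2.10, 1.63, 3.67 and 1.74 in ATF3 KO. That of Ddx58 was at −0.23, −0.23, −0.27 and −0.22 in WT and at −0.17, −0.20, 0.49 and 0.15 in ATF3 KO. For this Ddx58 probe every ATF3 KO array was above every WT array, opposite to the brighter probe without replicate 3.

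The interferon ligands did not read highest on replicate 3. The Ifnb1 probe (interferon beta) was above background on 0 of 8 arrays. Of 17 ligand genes 8 were tested, and 0 passed. Their list level was −0.21 on replicate 3; none of the 8 was highest there. Ifna1 was at −2.22, −2.28, −2.39 and −1.74 in WT and −1.77, −2.05, −2.15 and −1.73 in ATF3 KO. Signals of alpha interferon probes are uncertain, since the genes are close copies of each other. Of the 8, Ifnab had the only unadjusted p under 0.05 and differed by −0.59 (SE 0.20, limma adjusted p = 0.155). It was dim, above background on 6 of 8 arrays, and with normexp background correction its difference was −0.093. Ifna12 differed by 0.22 (SE 0.16) and Ifnl3, an interferon lambda, by −0.21 (SE 0.18).

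Receptors and signal carriers did not share the pattern of the members at the same size. The list level of 16 such genes was 0.20 on replicate 3, 0 of 16 passed, and 8 of 16 were highest there, against 11.6% of all genes. Ifnar1 was at 2.87, 2.83, 2.77 and 2.91 in WT and at 2.69, 2.45, 2.56 and 2.35 in ATF3 KO, with no overlap (difference −0.33, SE 0.10, limma adjusted p = 0.139). Ifnar2 was at 4.35, 4.51, 4.37 and 4.51 against 4.36, 4.13, 4.56 and 4.09, and the groups overlapped. The kinase Tyk2, the phosphatase Ptpn11 and the gamma receptor chain Ifngr1 differed by −0.71 (SE 0.36), −0.22 (SE 0.089) and −0.19 (SE 0.11). Without ATF3 KO replicate 1, where it was at −0.35, the Tyk2 difference was −0.31.

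Genes that lead to interferon production had a list level of 0.15 on replicate 3, with 17 of 19 tested and 0 passing. Of the 17, 8 were highest there, against 11.6% of all genes. Irf3, the factor that starts interferon beta transcription, was at 5.11 to 5.20 in WT and at 4.94 to 5.31 in ATF3 KO, with replicate 3 highest by 0.11. The kinase Tbk1 had no overlap between groups, at 1.99 to 2.17 in WT and 1.61 to 1.95 in ATF3 KO (difference −0.26, SE 0.10, limma adjusted p = 0.182). The adaptor Sting1 differed by −0.28 (SE 0.11), and the receptors Tlr4 and Tlr9 by −0.44 (SE 0.26) and 0.18 (SE 0.11). Without ATF3 KO replicate 1, where it was at 0.58, the Tlr4 difference was −0.16.

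Interferon-induced genes outside the 29 showed replicate 3 in a similar way. Of 81 further such genes 68 were tested, 65 were highest on replicate 3 and the list level there was 0.61, with 0 passing. Their median relative to all genes was 0.18 with and 0.02 without that array. Among the 32 genes induced mainly by interferon gamma 30 were tested, 23 were highest there and the list level was 0.58; the median went from 0.28 to 0.02 and 0 passed. Of this list Cd74, H2-Eb1, H2-Ab1 and Ciita had the smallest p, with differences of 0.34 (SE 0.089), 0.31 (SE 0.089), 0.28 (SE 0.086) and 0.72 (SE 0.21). These belong to MHC class II presentation, and for them replicate 3 was not the highest array. The list level of B-lineage markers, cells that also carry these genes, was −0.65 to −0.17 in WT and 0.15 to 0.63 in ATF3 KO, that of conventional dendritic cells, whose list shares Ciita and H2-Ab1, −0.21 to −0.05 and −0.02 to 0.36, and that of plasmacytoid dendritic cells −0.23 to −0.10 and −0.06 to 0.49. The part of these cells in the differences was not tested. In the first list Apol9b, Slfn9, Ifitm1 and Tnfsf10 had the smallest p, with differences of 0.57 (SE 0.19), 0.38 (SE 0.18), −0.28 (SE 0.16) and 0.41 (SE 0.26). Without replicate 3 these were 0.41, 0.51, −0.43 and 0.11.

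**Figure D3:**
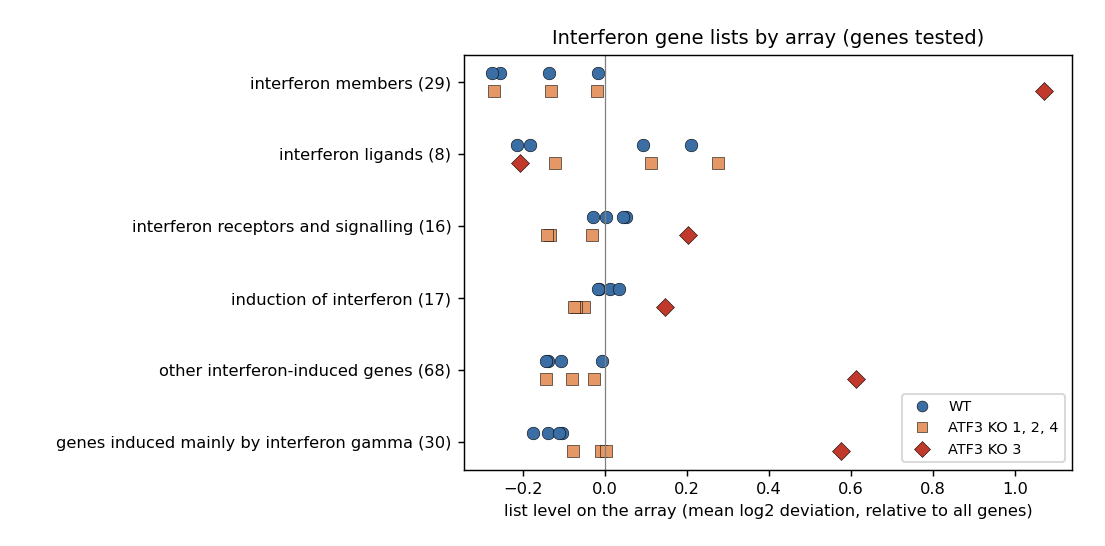
The x axis is the list level on each array, in log2 relative to all genes, for the members and 5 further lists, with the number of genes tested in brackets. ATF3 KO replicate 3 (diamond) is at 1.07 for the members, 0.61 and 0.58 for the other induced genes, and between −0.21 and 0.20 for ligands, receptors and induction genes.

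The genes whose levels over the 8 arrays were most like the list level were mostly interferon-induced too. Among 13053 named genes outside the members, the 15 highest had Pearson r from 0.973 to 0.995 over 8 arrays. In order they were Tgtp2, Parp10, Ifit3b, Pstk, Irgm1, Parp12, Cd274, Igtp, Slfn8, AW011738, Pttg1, Trim34a, Ifi204, Ifi47 and Trim21. Without the 2 arrays farthest from the median, ATF3 KO replicate 3 and WT replicate 3, their r was 0.45 to 0.91. Of the 15, 12 were in the lists above and Pstk, AW011738 and Pttg1 in none. Tgtp2, an interferon-inducible GTPase, was at 2.87 to 3.22 on the other 7 arrays and at 4.90 on replicate 3. Ifit3b is a near copy of Ifit3, so their probes may read both transcripts.

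A margin of over 0.5 above each of the other 7 arrays, a size chosen after the values were seen, was met on replicate 3 by 28 of 29 members, all but Isg20, and by 0.979% of all genes. Those were 208 genes, of which 124 had a symbol: the 28 members, 30 other induced genes, 10 of the gamma list and 56 in no list. Other arrays had such genes of their own, from 18 on WT replicate 2 to 312 on ATF3 KO replicate 4, and no member was among them.

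None of 8 marker lists for blood cell types had its highest level on replicate 3. Plasmacytoid dendritic cells are known as strong interferon producers; 9 of 9 of their markers were tested. Their list level was 0.21 on ATF3 KO replicate 3 and 0.49 on replicate 4. Summed over the list in units of the 75th percentile, they were at 336 to 458 in WT and 459 to 701 in ATF3 KO, with 478 on replicate 3. Monocyte markers (7 of 8 tested) summed to 174 to 194 in WT and 143 to 181 in ATF3 KO, and neutrophil markers (11 of 12) to 10308 to 13121 and 12535 to 15159. B-lineage markers (10 of 10) summed to 44.4 to 67.0 in WT and 93.1 to 103 in ATF3 KO, where replicate 3 held the highest sum but, at 0.15, the lowest list level of its group. None of the marker genes of the 8 cell types was over 0.5 above the other arrays on replicate 3. In bulk RNA, more cells with a transcript and more transcript per cell cannot be told apart. The part of any of these cells in the levels of the members was not tested.

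**Figure D4:**
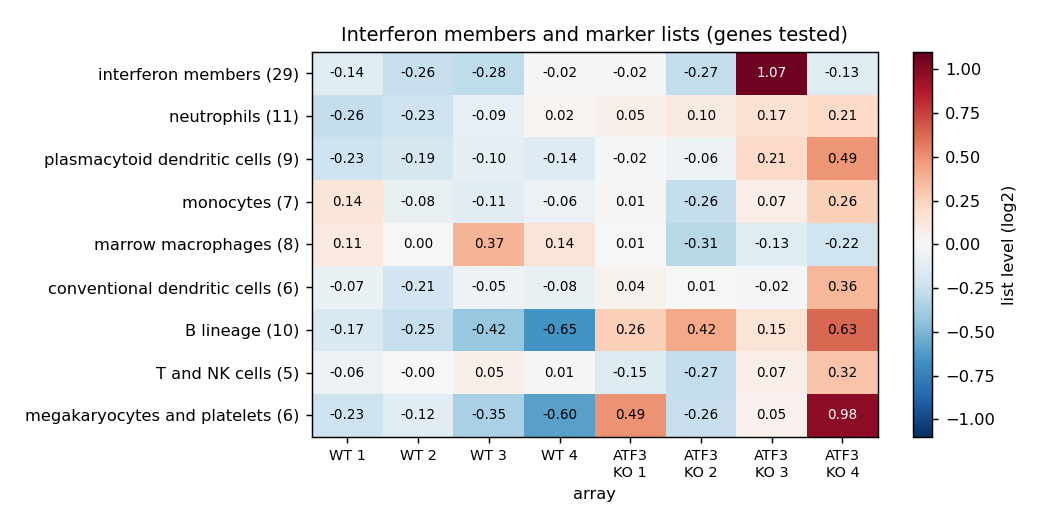
Rows are the interferon members and 8 marker lists with the number of genes tested, columns are arrays, and colour and printed number give the list level in log2 relative to all genes. The members are at 1.07 on ATF3 KO replicate 3, where no marker list exceeds 0.21, and the highest marker level is 0.98 for megakaryocytes and platelets on ATF3 KO replicate 4.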

How the data were processed

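The data were single-colour Agilent mouse arrays from 4 WT and 4 ATF3 KO samples. The scanner output was deposited as linear intensity for every spot, of which the processed signal is background-subtracted per the file headers; the scanner software was Feature Extraction 10.9.1.1 (10.10 per the submitters' processing notes). The authors' deposited log2 table of the whole series was an alternative only; its scale, centring and direction are not stated in the sources used here, and its column medians were 6.15 to 6.17. The deposited spot flags served to leave out control and outlier spots.

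Processed signal was taken to log2, spots of a probe were averaged, and the 75th percentile over all 55681 probes of each array was subtracted. Probes above background on at least 4 arrays were kept, and the brightest on average stood for a gene, which left 21251 genes. limma 3.58.1 (R 4.3.3) fitted genotype alone, with Benjamini-Hochberg adjustment over all genes and a threshold of 0.05. On simulated data of 21251 genes this recovered 30% of 1.5-fold, 72% of 2-fold and 96% of 4-fold changes. The changed genes were drawn from all genes, each with its own spread. These rates therefore do not give the recovery for the members, whose SDs in the ATF3 KO group were 0.39 to 1.00. The number of arrays limits the precision. Deviations of same-numbered samples correlated at −0.27 to 0.19, with 2 of 4 pairs over 0.1, and those of differently numbered samples at −0.31 to 0.30. The samples were therefore not paired by number in the main fit, although so few arrays cannot exclude a pairing.

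The members and the lists, their roles and the markers were chosen with earlier results of these data known. Named members are the 8 with the largest and the 4 with the smallest difference among those above background, those passing or not overlapping, and those with discordant probes. Outside the members they are Atf3, Ifnar1, Ifnar2, Ifnb1, Irf3, up to 4 of each list with the smallest p, and the 15 most like the list; 1 further gene of that rule is not reported here. Alternatives were normexp (on the median signal), quantile and median scaling, other filters and variances, a replicate block and leaving out each array. Promoters are from RefSeq GRCm38.p6 and cover 22 of 31 members.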

Additional observations from a re-analysis of the deposited data

Results flagged for a closer look

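A sample was singled out where its distance to the nearest sample of its group, divided by the range of the group, was above Dixon's 95% critical value for 4 samples, which chance gives for about 1 in 20 groups. Over the 58 groups of the 29 members this held for 8, of which 6 were ATF3 KO replicate 3 above the rest; over all genes it held for 4.35% of ATF3 KO groups. The distance above the nearest ATF3 KO array was 1.21 for Rtp4, 1.07 for Stat2, 0.91 for Ddx58, 0.85 for Parp14, 0.79 for Trim30a and 0.74 for Irf9 (log2). WT replicate 4 stood 0.47 above the other WT arrays for Oasl2 and 0.68 above for Ifi27l2a.

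Beyond the members, WT replicate 3 was 0.65 above the nearest WT array for Ifnab, and WT replicate 2 was 0.13 above for Ptpn11 and 0.41 below for Ciita. The list level of the members was not among those flagged. Of the flagged list levels, replicate 3 stood 0.20 above the next ATF3 KO array for the induction genes. It stood 0.64 above for the other interferon-induced genes and 0.57 above for the genes induced mainly by interferon gamma. The cause of these distances was not tested.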

How the results depend on the processing

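In all alternatives tried, 0 members passed. ATF3 KO replicate 3 was highest for 29 members in each alternative that held it except without scaling between arrays (27; Dhx58 was then highest on WT replicate 2 and Isg20 on WT replicate 1; chosen after seeing the data). The list level there was 0.96 to 1.08, and the list median relative to all genes 0.10 (without that array) to 0.50. With the replicate block, 72 genes and 0 members passed.

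The number of genes passing over the whole array moved from 95 to 236 with normexp, 31 with quantile normalization, 217 with median scaling, 44 with the percentile over detected probes, 10 without a filter, 19 with background passed on at least 1 array, 58 with every probe tested, 192 with trend and robust variances, 207 with array weights and 150 with the deposited log2 table. Leaving out 1 array gave 9 to 234: WT replicate 1 (9), 2 (36), 3 (13) or 4 (59), ATF3 KO replicate 2 (20), 3 (234) or 4 (29). The cause of these moves was not tested. Over all genes, 15.1% had groups that did not overlap in the main fit and 29.5% without ATF3 KO replicate 3. For the other alternatives this share is not given here. Members not overlapping numbered 0 to 3 on leaving out 1 array, with the 3 found without ATF3 KO replicate 3. They numbered 1 with quantile normalization, the percentile over detected probes, every probe tested and the authors' deposited values. In those deposited values 1 gene of the interferon gamma list passed (Cd74), as did Atf3 (0.54, limma adjusted p = 0.0345).

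Differences between genotypes that changed sign were all short of the threshold in both fits. With normexp the log2 difference was −0.093 for Ifih1, −0.082 for Dhx58, −0.037 for Oas3 and 0.025 for Ifnl3. Under quantile normalization the log2 difference was 0.11 for Ddx58, 0.092 for Zbp1, 0.068 for Isg20, −0.070 for Ifi44, 0.0012 for Ifnar2 and 0.075 for Irf3. Under median scaling the log2 difference was −0.019 for Ifih1, −0.042 for Dhx58, −0.049 for Oas3 and −0.069 for Ifi44. Over detected probes the log2 difference was 0.13 for Ddx58, 0.11 for Zbp1, 0.090 for Isg20, 0.0028 for Ifnar2 and 0.082 for Irf3. Under array weights the log2 difference was −0.10 for Ifi44. In the authors' deposited table the log2 difference was 0.17 for Ddx58, 0.098 for Zbp1, 0.055 for Isg20, −0.045 for Ifi44 and 0.10 for Irf3. On leaving out 1 array in turn the log2 difference ran from −0.27 to 0.082 for Ddx58, −0.22 to 0.21 for Ifih1, −0.17 to 0.14 for Dhx58, −0.53 to 0.19 for Zbp1, −0.14 to 0.28 for Stat2, −0.038 to 0.23 for Irf9, −0.082 to 0.47 for Irf7 and −0.00020 to 0.68 for Usp18. It ran from −0.014 to 0.48 for Herc6, −0.16 to 0.57 for Ifit2, −0.22 to 0.20 for Oas3, −0.022 to 0.43 for Rsad2, −0.030 to 0.43 for Cmpk2, −0.31 to 0.093 for Isg20, −0.033 to 0.42 for Bst2 and −0.078 to 0.54 for Gbp3. For the rest it ran from −0.0086 to 0.30 for Trim30a, −0.14 to 0.19 for Parp14, −0.12 to 0.35 for Rtp4, −0.034 to 0.55 for Xaf1, −0.34 to 0.27 for Ifi44 and −0.12 to 0.36 for Ifi27l2a. Without ATF3 KO replicate 3, 19 of 29 members had the opposite sign from that over 8 arrays.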

Other observations

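The named genes with the widest gaps on ATF3 KO replicate 3, picked after their values were seen, included some outside the interferon lists. 1700042G15Rik, Morn2, Il17c, Ttk and Acsbg2 were in no list and had the widest gaps, 2.07 to 2.40. Their levels were −0.49 to 0.25 on replicate 3 and at most −2.04 on the other 7 arrays, and each was above background on 4 to 6 arrays. Pstk, in no list either, was above background on 8 arrays, at −1.20 to −0.74 on the other 7 and at 0.98 on replicate 3 (gap 1.73). Of the listed genes, Cxcl10, a chemokine induced by interferon, was at 0.95 to 2.41 on the other 7 arrays and 4.45 on replicate 3, and Gbp5, a guanylate-binding protein of the gamma list, at −0.50 to 0.29 and 2.02. Both were above background on 8 arrays.

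ATF3 KO replicate 1 read low for a pair of genes of the wider pathway. Tyk2 was at −0.35 there and at 0.83 to 1.74 on the other 7 arrays, and Tlr4 at 0.58 against 1.45 to 2.02.

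The ISRE core was also present in promoters of the further induced genes with an entry. It was found in 30 of 70 other induced genes and 9 of 19 genes induced mainly by interferon gamma. Of receptors and signal carriers 1 of 14 held it, of induction genes 2 of 14, and of all genes 3.99%. Members with and without the core had a median gap of 0.93 on replicate 3 in both cases (12 and 10 members; ranges 0.65 to 1.68 and 0.36 to 1.22).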
